A study of Mus musculus with 31 samples.

Results

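The genes followed here are known from injured neurons, and they are 6 of the 15648 genes in the count table of the mouse hippocampus. They are Ecel1, Tnfrsf12a, Odc1, Atf3, Sox11 and Gadd45a (identifiers ENSMUSG00000026247.14, ENSMUSG00000023905.16, ENSMUSG00000011179.9, ENSMUSG00000026628.14, ENSMUSG00000063632.7 and ENSMUSG00000036390.9). Rows were taken by symbol, and all 6 were found. The members were chosen by measured values: Ecel1, Tnfrsf12a and Odc1 stood out in the 5-day comparison of these mice, and which values led to the choice of the other 3, and by which threshold, is not recorded. The 5-day values are therefore given as a description without a test, whereas the other days rest on other mice, although results of those days were also known.

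The left hippocampus of 31 OT-I/Rag-/- mice was sequenced as bulk RNA, and the deleted gene is Rag1 by the study's methods. All mice, controls included, lack their own T and B cell receptors and carry the OT-I transgene, a T cell receptor for a peptide of ovalbumin (OVA). An adeno-associated vector was injected into the hippocampus and expressed either OVA with the red fluorescent protein mCherry (rAAV-hSyn-OVA-mCherry, rAAV-OVA) or mCherry alone (rAAV-hSyn-mCherry, rAAV-control). The human synapsin promoter hSyn restricts either product to neurons, so the neurons that took up rAAV-OVA become targets of the CD8+ T cells. Tissue was taken at 2, 5, 8 and 28 days from 4 mice per vector and day, except for 3 rAAV-control mice at 8 days. At 2 and 28 days the groups of 4 held 2 mice of each of 2 batches named in the labels, and all mice at 5 and 8 days were of batch 1. Mice of a group are numbered in order of deposition.

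Neurons that are damaged or cut off from their target switch on a growth and stress programme. In peripheral neurons its best known factors are Atf3, a basic leucine zipper (bZIP) repressor and activator that stress kinases induce, and Sox11, a SoxC factor of immature neurons that returns after axon damage. Ecel1, also called DINE, is a neuronal membrane endopeptidase induced by nerve injury. Tnfrsf12a encodes Fn14, the receptor of the cytokine TWEAK, Odc1 encodes ornithine decarboxylase, the rate-limiting enzyme of polyamine synthesis, and Gadd45a encodes a sensor of DNA damage and growth arrest. Atf3, Tnfrsf12a, Odc1 and Gadd45a are known from glia and myeloid cells as well, and bulk RNA does not say which cells hold a transcript. In such tissue fewer cells of a type and less RNA per cell cannot be told apart.

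The promoter windows of the genes are shown as a description of the stress motifs that these windows hold. RefSeq windows (GRCm38.p6) were found for all 6 genes, and the 250 bases before the start of transcription were searched on both strands for the AP-1 motif (TGANTCA), the CRE (TGACGTCA), the E-box (CACGTG) and the composite C/EBP-ATF motif (TGATGNAA). The sequences of the 2 genes with the largest Log2FC at 5 days and of the only one with a match are printed 5′ to 3′ on the strand of the gene, in lower case, with a match in capitals.
Ecel1, chr1:87156357-87156606, minus strand: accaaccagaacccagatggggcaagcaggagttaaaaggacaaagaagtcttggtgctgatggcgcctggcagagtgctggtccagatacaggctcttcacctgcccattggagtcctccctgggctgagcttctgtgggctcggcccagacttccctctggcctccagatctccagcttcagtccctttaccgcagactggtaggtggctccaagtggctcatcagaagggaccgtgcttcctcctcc
Tnfrsf12a, chr17:23677450-23677699, minus strand: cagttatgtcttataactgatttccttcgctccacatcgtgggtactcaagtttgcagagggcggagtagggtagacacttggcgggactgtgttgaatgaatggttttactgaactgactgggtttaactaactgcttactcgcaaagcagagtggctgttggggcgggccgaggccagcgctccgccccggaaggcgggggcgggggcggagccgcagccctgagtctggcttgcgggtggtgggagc
Atf3, chr1:191183334-191183583, minus strand: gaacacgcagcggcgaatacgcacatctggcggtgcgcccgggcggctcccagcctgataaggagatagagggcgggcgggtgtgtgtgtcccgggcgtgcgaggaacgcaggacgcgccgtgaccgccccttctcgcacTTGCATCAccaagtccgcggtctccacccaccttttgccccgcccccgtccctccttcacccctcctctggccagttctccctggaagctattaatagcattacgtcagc

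The Atf3 window held the composite motif on the opposite strand, from 110 to 103 bases before the start. Of all 32851 windows of this length, 3.45% held that motif, 6.75% the AP-1 motif, 1.55% the CRE and 6.02% the E-box. The windows of the other 5 members held none of these letters. No difference between the members is read from 1 match in 6 windows. The GC content of the members' windows lay between 58% in Sox11 and 80% in Odc1, against a median of 52.4% over all windows.

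Levels are given as CPM, the counts per 1000000 counts of the library after TMM scaling. At 5 days the level of Ecel1 was 8.92, 10.3, 15.2 and 18 CPM in the rAAV-OVA mice and 1.03, 1.21, 1.15 and 1.69 CPM in the rAAV-control mice. The level of Tnfrsf12a was 37.9, 15.3, 17.3 and 33.5 CPM against 1.66, 2.85, 2.26 and 2.94 CPM. For both genes every rAAV-OVA mouse lay above every control mouse. The fitted difference on the log2 scale (Log2FC) was 4.16 (SE 0.80) for Ecel1 and 2.97 (SE 0.37) for Tnfrsf12a. The value of Ecel1 depended on the surrogate variables of the fit, which are estimated over all mice, and was 3.34 without them, 3.36 with the mice of the day alone and 3.30 without the fourth rAAV-OVA mouse of 28 days.

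Atf3 and Odc1 showed the same separation at 5 days. The level of Atf3 was 20.5, 12.7, 13.5 and 14.2 CPM with rAAV-OVA and 0.984, 1.75, 0.965 and 2.23 CPM with the control vector (Log2FC 2.59, SE 0.42, and 3.33 without surrogate variables). The level of Odc1 was 253, 174.5, 161 and 240.1 CPM against 75.7, 84.7, 76.1 and 68.3 CPM (Log2FC 1.25, SE 0.15). In both genes the lowest rAAV-OVA mouse was well above the highest control mouse.

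Sox11 and Gadd45a moved less. The level of Sox11 at 5 days was 54.5, 20.5, 25.2 and 33.3 CPM against 14.5, 20.4, 16.5 and 21 CPM (Log2FC 1.18, SE 0.30), so that 1 rAAV-OVA mouse lay below the highest control. The level of Gadd45a was 8.53, 3.79, 5.97 and 6.24 CPM against 2.28, 3.25, 3.78 and 3.70 CPM (Log2FC 0.82, SE 0.24), and the groups lay next to each other without overlap. Over all genes tested 21% had every rAAV-OVA mouse above every control mouse at 5 days, and 9.56% were higher as a differentially expressed gene (DEG, FDR at most 0.05 and absolute Log2FC at least 0.66). The median Log2FC of the 6 members was 1.92 against -0.01 over all genes, and nothing is read from this because the 5-day comparison took part in the choice.

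Cell type markers moved with the vector at 5 days. The summed level of the T cell markers ran from 54.8 to 88.2 CPM with rAAV-OVA and from 0.179 to 1.68 CPM in controls, although only Cd8a and Gzmb of the 10 markers listed are in the table. The 7 monocyte and macrophage markers summed to 614 to 1292 CPM against 17.85 to 169.5 CPM, and the 6 markers of CA pyramidal neurons to 4272 to 5482 CPM against 6804 to 8859 CPM. The part of these shifts in the members' values was not tested.

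**Figure D1:**
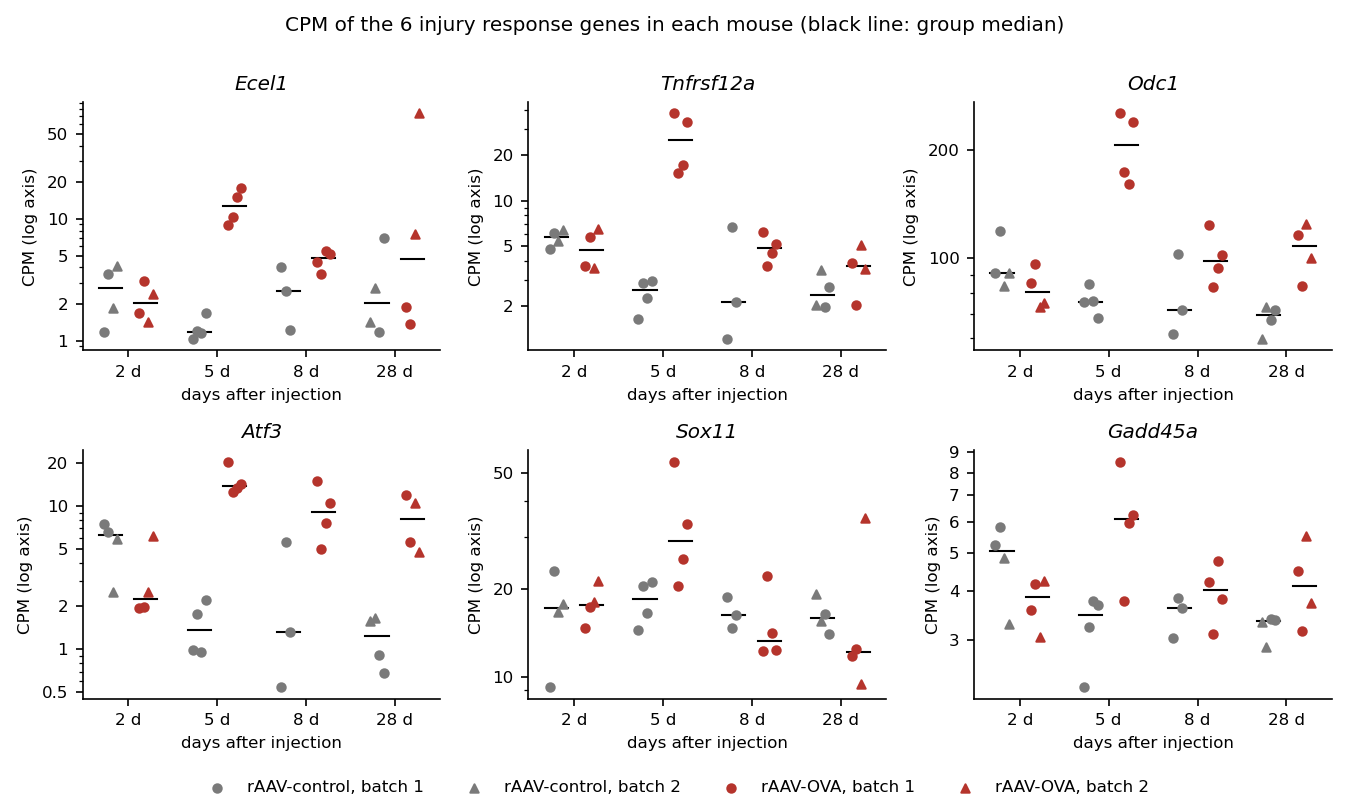
Level in CPM (log axis) of each of the 6 genes in each mouse by days after injection, in grey for rAAV-control and red for rAAV-OVA, circles for batch 1, triangles for batch 2 and a black line at the group median. The red points stand above the grey ones at 5 days in every panel but Sox11, Atf3 stays apart at 28 days, and 1 red triangle at 28 days reaches 73.3 CPM for Ecel1.

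At 2 days no member passed the test between the vectors. The levels overlapped in all 6 genes, and Log2FC ran from -0.96 (SE 0.38) in Atf3 to 0.29 (SE 0.29) in Sox11. No DEG was found among all genes at this day with edgeR (0%), with 1428 genes at an unadjusted p under 0.05, 10 DEGs with DESeq2 and 0 with limma's voom. Atf3 was 7.54, 6.63, 2.52 and 5.87 CPM in the rAAV-control mice and 1.94, 1.98, 2.5 and 6.17 CPM in the rAAV-OVA mice (FDR 0.454). Its mean difference in log2 CPM was -1.81 among the mice of batch 1 and 0.03 among those of batch 2. The monocyte and macrophage markers summed to 159 to 967 CPM in the control mice at 2 days and to 66.9 to 155.0 CPM in the rAAV-OVA mice. Their part in the Atf3 values was not tested.

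At 8 days 1 member, Atf3, passed the test. Its level was 14.9, 5.00, 7.66 and 10.5 CPM in the rAAV-OVA mice and 0.543, 5.60 and 1.31 CPM in the controls (Log2FC 2.19, SE 0.45, FDR 0.00164). The second control mouse lay above the lowest rAAV-OVA mouse, so the groups overlapped. Over all genes 9.36% were DEGs higher with rAAV-OVA at this day, and 14.4% had groups that did not overlap in that direction. The call was lost without the third control mouse (Log2FC 1.64) and with the mice of that day alone (Log2FC 1.96, FDR 0.148). The T cell markers summed to 66.5 to 203 CPM with rAAV-OVA at 8 days and to 1.19 to 17.8 CPM in controls, and the monocyte and macrophage markers to 458 to 1951 CPM against 27.5 to 249.7 CPM. Their part in the Atf3 values was not tested.

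The other 5 members were not called at 8 days with all mice. The level of Ecel1 was 4.47, 3.54, 5.48 and 5.12 CPM with rAAV-OVA and 4.01, 2.56 and 1.23 CPM in controls (Log2FC 1.27, SE 0.80, FDR 0.261). The level of Tnfrsf12a was 6.19, 3.71, 4.51 and 5.18 CPM against 1.21, 6.68 and 2.15 CPM (Log2FC 0.70, SE 0.37, FDR 0.186). Ecel1 was called in 5 of the 31 fits that left out 1 mouse, with Log2FC of 1.95 to 2.17, and Tnfrsf12a without the fourth rAAV-OVA mouse of 2 days (Log2FC 1.04, FDR 0.0468). Log2FC was 0.32 (SE 0.15) in Odc1, 0.17 (SE 0.25) in Gadd45a and 0.06 (SE 0.32) in Sox11, and the levels overlapped in each of them.

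The second rAAV-control mouse at 8 days stood apart from the rest of its group. It held 9.73 CPM of Cd8a and 8.11 CPM of Gzmb, where the other controls of that day held at most 1.09 and 0.676 CPM, and its microglia markers summed to 1256 CPM against at most 594 CPM. It also had the highest control level of Tnfrsf12a, Odc1, Atf3 and Gadd45a at 8 days, and Log2FC of Tnfrsf12a at this day was 1.46 and passed the test without it. With this library and the striatal one described next left out, 2 members were called at 8 days, Atf3 (Log2FC 3.22) and Tnfrsf12a (Log2FC 1.46, FDR 0.0081), where 12.1% of all genes were higher as DEGs.

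At 28 days Atf3 and Ecel1 were called higher, against 12.7% of all genes, but only Atf3 held without single mice. Atf3 was 12.1, 5.60, 10.6 and 4.79 CPM in the rAAV-OVA mice and 1.58, 1.64, 0.915 and 0.687 CPM in the controls (Log2FC 2.01, SE 0.42, FDR 0.00122). No rAAV-OVA mouse overlapped with the controls, as for 15% of all genes, and the mean difference in log2 CPM was 3.26 within batch 1 and 2.10 within batch 2. Atf3 remained called with each mouse left out in turn and with both libraries that stood apart left out (Log2FC 2.21). The T cell markers summed to 6.86 to 177 CPM with rAAV-OVA at 28 days and to 0.137 to 1.16 CPM in controls, and the monocyte and macrophage markers to 86.6 to 1680 CPM against 10.8 to 21.6 CPM. Their part in the Atf3 values was not tested.

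Ecel1 at 28 days rested on few mice. Its level was 1.89, 1.37, 7.5 and 73.3 CPM in the rAAV-OVA mice and 1.42, 2.69, 1.17 and 6.96 CPM in the controls (Log2FC 2.63, SE 0.71, FDR 0.00726). The first 2 rAAV-OVA mice, both of batch 1, lay among the controls. The mean difference in log2 CPM was -0.81 within batch 1 and 3.54 within batch 2. Log2FC was 0.06 without the fourth rAAV-OVA mouse of that day, 0.62 without the fourth rAAV-OVA mouse of 2 days and 1.76 without the third control mouse of 28 days, and Ecel1 was not called in any of the 3 cases.

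The fourth rAAV-OVA mouse at 28 days carried genes of another brain region. All 9 striatal neuron markers, a list added after the data were seen, were higher in it than in the other 30 mice, with 99.9 CPM of Drd2 against at most 5.17 CPM and 668 CPM of Penk against at most 75.3 CPM. Neurod6, a factor of hippocampal pyramidal neurons, was at 7.69 CPM in it and at 42.8 to 258 CPM elsewhere. Zic1, a factor of the septum and other medial forebrain tissue, was at 232 CPM in this mouse, at 95.7 CPM in the third rAAV-OVA mouse and at 57.6 CPM in the fourth control mouse of 28 days, the mice that follow it in rank for Ecel1 at that day. Zic1 ran from 7.54 to 19.2 CPM in the other 5 mice of 28 days. At 5 days the striatal markers summed to 148.5 to 208 CPM with rAAV-OVA and to 168 to 206 CPM in controls. Zic1 was 18.7, 6.22, 14.1 and 37.7 CPM in the rAAV-OVA mice of that day, highest in the mouse that was also highest in Ecel1, and 9.38 to 16.6 CPM in the controls. At 2 days Zic1 was 33.2, 35.7, 9.58 and 35.2 CPM in the rAAV-OVA mice, beside 1.68, 3.07, 1.43 and 2.42 CPM of Ecel1. In the rAAV-control mice of that day Zic1 was 7.2, 8.32, 8.65 and 45.4 CPM, beside 1.17, 3.5, 1.87 and 4.13 CPM of Ecel1. The part of tissue from outside the hippocampus in the values of these days was not tested.

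**Figure D2:**
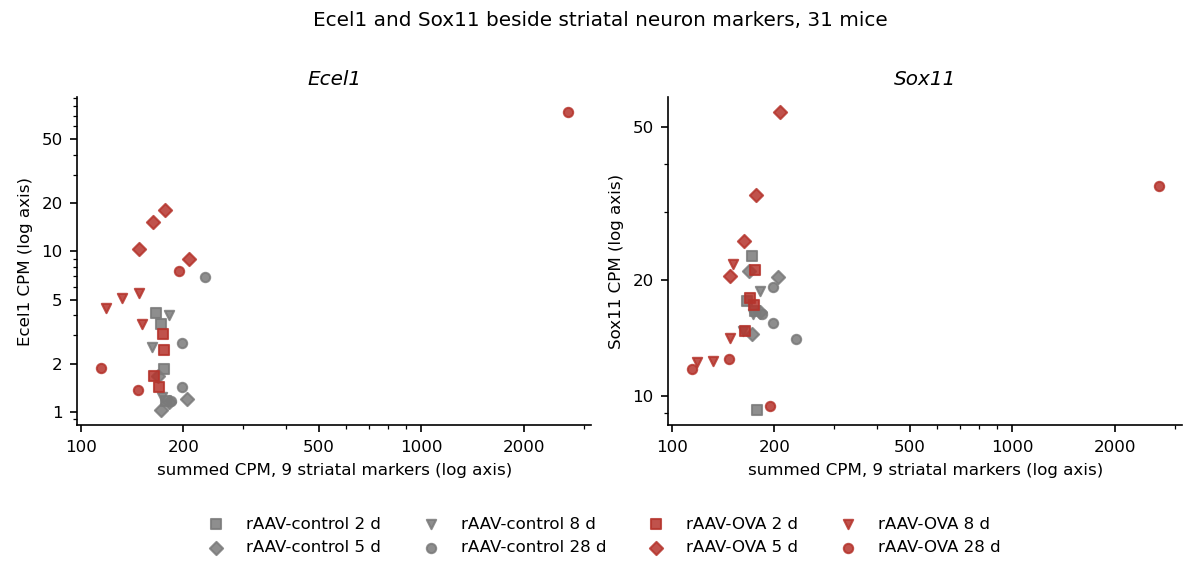
Level in CPM of Ecel1 and of Sox11 against the summed CPM of 9 striatal neuron markers in the 31 mice, both axes on a log scale, in grey for rAAV-control and red for rAAV-OVA with a symbol for each day. One rAAV-OVA mouse of 28 days stands alone at 2686 CPM of striatal markers with 73.3 CPM of Ecel1 and 35 CPM of Sox11.

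Odc1 was higher at 28 days by less than the limit of a DEG. Its level was 116, 84.0, 124.7 and 99.99 CPM with rAAV-OVA and 59.6, 73.3, 67.2 and 72.0 CPM in controls (Log2FC 0.46, SE 0.15, FDR 0.0184). The groups did not overlap, as for 15% of all genes in this direction, and the mean difference in log2 CPM was 0.51 within batch 1 and 0.76 within batch 2. Odc1 would be called without the limit on Log2FC.

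The last 3 members did not pass at 28 days. The level of Tnfrsf12a was 3.85, 2.04, 5.11 and 3.55 CPM against 2.04, 3.49, 1.98 and 2.70 CPM (Log2FC 0.15, SE 0.35, FDR 0.765). The level of Sox11 was 11.7, 12.5, 9.42 and 35 CPM against 19.1, 15.4, 16.3 and 14 CPM (Log2FC 0.20, SE 0.29, FDR 0.617). Of the 4 rAAV-OVA mice, 3 were below all controls for Sox11, and the fourth, the mouse with the striatal markers, was above them. Its Log2FC was -0.39 with both libraries that stood apart left out. Gadd45a ran from 3.17 to 5.52 CPM against 2.89 to 3.40 CPM (Log2FC 0.29, SE 0.24, FDR 0.357).

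**Figure D3:**
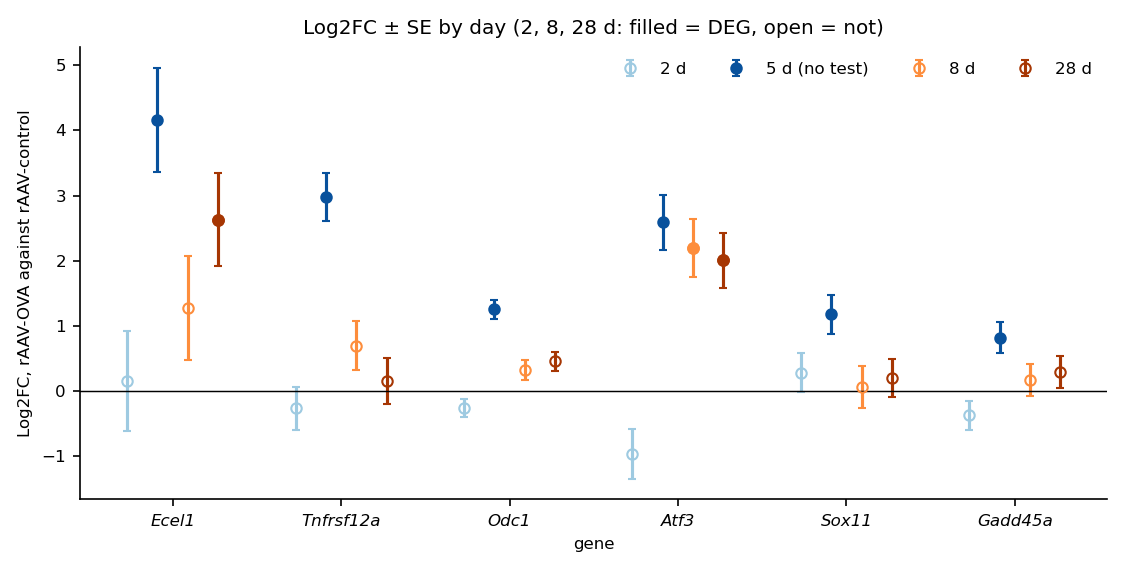
Log2FC of rAAV-OVA against rAAV-control with its SE for the 6 genes at each day, where filled points at 2, 8 and 28 days are DEGs, open points are not, and the points of 5 days carry no test. All 6 genes have their highest value at 5 days, the comparison that took part in their choice, Atf3 stays at 2.19 and 2.01 at the later days, and Ecel1 is at 2.63 at the last.

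No member passed the test of the difference between the responses at 28 and 8 days. The difference between both Log2FC ran from -0.55 (SE 0.52) in Tnfrsf12a to 1.36 (SE 1.05) in Ecel1, and no gene of the table passed this test with edgeR (0%), with 2521 genes at an unadjusted p under 0.05, 158 DEGs with DESeq2 and 0 with limma's voom. Across the 8 groups, the rAAV-OVA mice of 5 days had the highest mean level of Tnfrsf12a, Odc1, Atf3, Sox11 and Gadd45a, and the second highest of Ecel1 after the rAAV-OVA mice of 28 days. Nothing is read from this order, since values of 5 days took part in the choice of the genes. Of the 7 neighbouring pairs in the order of means, 1 did not overlap for Ecel1 (rAAV-OVA at 5 over 8 days, as for 6.59% of all genes), 1 for Tnfrsf12a (rAAV-OVA at 5 days over rAAV-control at 2 days, 15.4%) and 1 for Odc1 (rAAV-OVA at 5 over 28 days, 6.97%). All 3 pairs hold the group of 5 days. All 7 overlapped for Atf3, Sox11 and Gadd45a.

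Members were also compared among rAAV-control mice, since these saw the injection without OVA. Atf3 was lower at 28 days than at 2 days (Log2FC -1.96, SE 0.42, FDR 0.0079), from a mean of 5.64 ± 2.19 to 1.21 ± 0.48 CPM (SD, n = 4 each). It was the only member among the 2.82% of genes that were DEGs lower at the later day. In the same mice the monocyte and macrophage markers summed to 159 to 967 CPM at 2 days and 10.8 to 21.6 CPM at 28 days, and the microglia markers to 640 to 783 CPM and 406 to 455 CPM. Their part in the Atf3 values was not tested. The mean of Tnfrsf12a was 5.69 ± 0.70 CPM at 2 days and 2.55 ± 0.71 CPM at 28 days (Log2FC -1.02, SE 0.34, FDR 0.118), and these levels did not overlap, as for 8.83% of all genes in this direction. Tnfrsf12a passed with DESeq2 (FDR 0.0442, with 4.06% of all genes lower) and with both libraries that stood apart left out (Log2FC -1.09, FDR 0.0191, with 5.1% lower). Log2FC was -0.41 (SE 0.14) in Odc1, and it was -0.52 (SE 0.23) in Gadd45a and -0.20 (SE 0.29) in Sox11.

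Between 2 and 8 days no member passed the test in control mice, against 0.415% of genes lower at the later day. Log2FC was -1.89 (SE 0.46, FDR 0.0522) in Atf3, -1.14 (SE 0.38, FDR 0.175) in Tnfrsf12a and -0.37 (SE 0.15, FDR 0.277) in Odc1. DESeq2 called Atf3 (Log2FC -1.95, FDR 0.00166) and 1.65% of all genes lower. With both libraries that stood apart left out, Atf3 (Log2FC -2.72) and Tnfrsf12a (Log2FC -1.81) were both called, where 2.99% of all genes were lower as DEGs. Both control comparisons share the mice of 2 days.

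Some members varied together among the mice of a group. The group mean was taken off log2 CPM (prior count 2), and the 15 pairs were tested over 31 mice with a two-sided permutation test within groups. Tnfrsf12a rose and fell with Odc1 (Pearson r 0.79, permutation p = 0.00016, FDR 0.0024, Spearman rho 0.75, permutation p = 0.00025, FDR 0.00375) and with Atf3 (r 0.73, permutation p = 0.00034, FDR 0.00255, rho 0.62, permutation p = 0.00073, FDR 0.00547). Gadd45a went with Tnfrsf12a (r 0.56, permutation p = 0.00088, FDR 0.0044, rho 0.60, permutation p = 0.00181, FDR 0.00905) and with Odc1 (r 0.53, permutation p = 0.00993, FDR 0.0372, rho 0.52, permutation p = 0.0112, FDR 0.042). These 4 of the 15 pairs passed the FDR limit with both measures.

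The 4 pairs kept their sign when the 2 mice farthest from the median of the first gene were left out, with r of 0.72, 0.54, 0.61 and 0.50 in the order given. Within batch 1 (23 mice, means of group and batch taken off) r was 0.87, 0.86, 0.66 and 0.55, and within batch 2 (8 mice) it was 0.78, 0.75, 0.34 and 0.15. Without both libraries that stood apart, the pair of Odc1 and Gadd45a no longer passed (r 0.53, FDR 0.099). None of the 5 pairs with Ecel1 passed, and r of Ecel1 with Sox11 fell from 0.48 (permutation p = 0.134, FDR 0.286, Spearman rho 0.24) to 0.01 without these libraries.

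**Figure D4:**
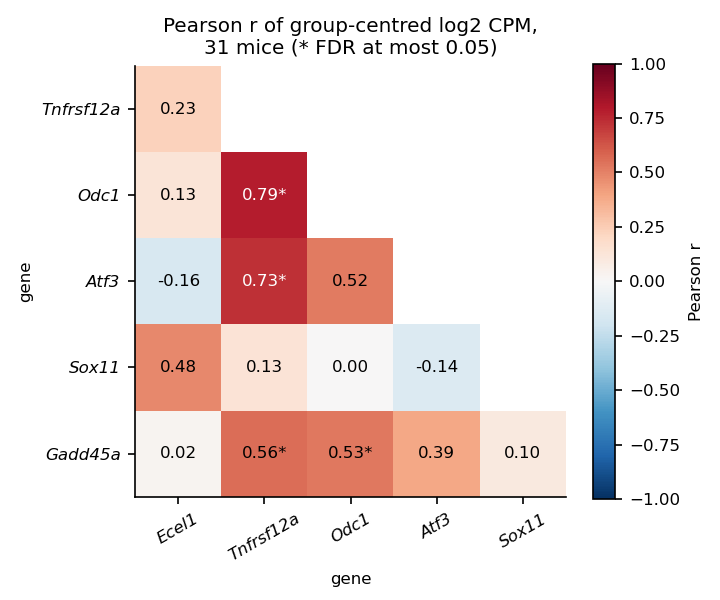
Pearson r between the log2 CPM of each pair of the 6 genes over 31 mice after the mean of each group was taken off, on a colour scale from -1 to 1, with a star where the FDR over 15 pairs is at most 0.05. Tnfrsf12a, Odc1 and Gadd45a form a block with values from 0.53 to 0.79, joined to Atf3 through Tnfrsf12a at 0.73, and Ecel1 and Sox11 carry no star.

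Over all genes, those with the most similar group-centred level in the 31 mice were listed for each member, as a description in which all genes share the libraries. For Ecel1 they included Drd2 (r 0.89), a striatal dopamine receptor, and Prdm16 (r 0.87). With both libraries that stood apart left out, the first 3 were Zfhx3 (r 0.81), Crb2 (r 0.81) and Ubxn10 (r 0.81), and Drd2 was at 0.73. For Tnfrsf12a they were Fam167a (r 0.84), Tulp3 (r 0.82) and Serpinf2 (r 0.81), and for Odc1 the actin regulator Twf1 (r 0.86), the ribonuclease inhibitor Rnh1 (r 0.84) and Ezr (r 0.84), which encodes ezrin. For Atf3 they were Slfn9 (r 0.88), Nuak2 (r 0.88) and the interferon-induced gene Ifit2 (r 0.86). For Sox11 they were Acvr1c (r 0.82), Pcdh8 (r 0.82) and Chga (r 0.81). Without both libraries these genes were at 0.70, 0.76 and 0.66, and Ckap4 (r 0.79) came first. For Gadd45a they were Stx4a, Ogfr and Trir (r 0.73 each). The first 3 for Tnfrsf12a without both libraries were Parp3 (r 0.81), Creb3l1 (r 0.80) and Mbd2 (r 0.80).

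The partners of the members were read from 9 lists, with the members themselves left out, and no gene of any list was a DEG at 2 days. Across all genes 9.56% were higher and 4.67% lower as DEGs at 5 days, 9.36% and 0.588% at 8 days, and 12.7% and 4.86% at 28 days. The median Log2FC over all genes was -0.01, -0.03 and 0.01 at these days. Counts without the 2 libraries that stood apart are given where a count moved by 1.5 times or more, and the genes that then gained or lost a call were named after their values were seen. In the fit without them more of all genes were called, with 11.7% higher and 5.53% lower at 5 days, 12.1% and 1.84% at 8 days, and 14.6% and 6.51% at 28 days. With 1 mouse left out in turn, calls were also lost for Atf4 at 5 days in 5 of 31 fits, for Jdp2 at 28 days in 7, and for Ddit4 at 5 days and Shmt2 and Igfbpl1 at 28 days in 2 each. The T cell, monocyte and macrophage markers given above were higher in the same rAAV-OVA mice at 5, 8 and 28 days, and the microglia markers summed to 1100 to 1117 CPM against 517 to 808 CPM at 5 days, 1012 to 1447 CPM against 428 to 1256 CPM at 8 days and 537 to 1521 CPM against 406 to 455 CPM at 28 days. Their part in the values of the lists was not tested.

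For Tnfrsf12a, the list of the TWEAK and Fn14 pathway held 12 genes, with 6, 8 and 7 of them higher at 5, 8 and 28 days and none lower. Its median Log2FC was 0.71, 1.00 and 0.85. Traf1, an adaptor that binds TNF receptors and is itself induced by NF-kB, rose on the log2 scale by 2.65 (SE 0.45) at 5 days and 3.92 (SE 0.48) at 28 days. Chuk, a kinase of the NF-kB pathway, rose by 0.72 (SE 0.20) at 5 days, a call that was lost in 4 of the 31 fits that left out 1 mouse. Traf1 and other NF-kB genes of this list are known from leukocytes as well, and the monocyte and macrophage markers summed to 614 to 1292 CPM with rAAV-OVA against 17.85 to 169.5 CPM at 5 days. The ligand Tnfsf12, which encodes TWEAK, was at 8.71 ± 1.27 CPM against 9.01 ± 1.41 CPM at 5 days (Log2FC -0.18, SE 0.22, FDR 0.58). At 28 days it was higher, at 12.6 ± 3.73 CPM against 7.22 ± 1.52 CPM (Log2FC 0.67, SE 0.22, FDR 0.0238), a value at the limit of a DEG, and the call was lost in 7 of the 31 fits that left out 1 mouse.

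For Odc1, 19 of the 20 listed genes of polyamine metabolism were in the table, and 1, 2 and 1 of them were DEGs at 5, 8 and 28 days, all higher. The median Log2FC was 0.09, -0.06 and -0.13. Sat1, which acetylates polyamines for their breakdown, rose on the log2 scale by 0.92 (SE 0.24) at 8 days and 1.09 (SE 0.23) at 28 days. The call at 8 days was lost with the mice of that day alone (FDR 0.0771) and in 4 of the 31 fits that left out 1 mouse. At 5 days Log2FC of Sat1 was 0.54 (SE 0.23, FDR 0.0751), and it passed without surrogate variables (Log2FC 0.94), with 15 counts in every mouse (0.77) and with the mice of that day alone (0.96). It was 0.85 and passed without the 2 libraries that stood apart, giving 2 genes there. The antizyme genes Oaz1 and Oaz2, the antizyme inhibitor Azin1 and Amd1, Srm, Sms and Smox of the polyamine pathway were not called at 2, 5, 8 or 28 days, with Log2FC of -0.62 (SE 0.17) in Sms at 28 days. Sms passed without the 2 libraries that stood apart (Log2FC -0.67, FDR 0.0124), so that 1 gene of the list was then lower.

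For Ecel1, 3 of the 6 other M13 metalloproteases listed were in the table. Mme, which encodes neprilysin, fell at 5 days, from 7.51 ± 0.434 CPM in controls to 3.44 ± 2.06 CPM (Log2FC -0.78, SE 0.26, FDR 0.0253), a call that was lost with limma's voom (FDR 0.0508) and in 10 of the 31 fits that left out 1 mouse. Ece1 and Ece2, the endothelin-converting enzymes, were not called at any day with all mice. Without the 2 libraries that stood apart, 2 of the 3 were lower at 5 days, with Ece2 added (Log2FC -0.70), and 1 at 8 days, Mme (Log2FC -0.91), where none was called with all mice.

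For Gadd45a, 21 genes of the Gadd45 family and of p53 targets were in the table. Of these, 5 were higher and 1 lower at 5 days, 2 higher at 8 days, and 5 higher and 1 lower at 28 days, with median Log2FC of 0.23, 0.30 and 0.14. The relatives Gadd45b (Log2FC 1.06, SE 0.20) and Gadd45g (Log2FC 0.94, SE 0.27) were higher at 5 days, as was Cdkn1a, the cell cycle inhibitor p21 (Log2FC 1.66, SE 0.47), whereas Bbc3, the death gene PUMA, was lower (Log2FC -0.93, SE 0.21). At 28 days the extremes were Eda2r, a receptor induced by p53 (Log2FC 1.24, SE 0.46), and Plk2, a kinase of active neurons (Log2FC -0.81, SE 0.17). The call of Eda2r was lost in 11 of the 31 fits that left out 1 mouse. Trp53 itself was not called, with Log2FC of 0.66 (SE 0.18) at 8 days and 0.65 (SE 0.18) at 28 days, at or just under the limit. It passed with DESeq2 (Log2FC 0.66 at both days), without surrogate variables at 28 days (Log2FC 1.05), in 8 of the 31 fits that left out 1 mouse at 8 days and 18 at 28 days, and without the 2 libraries that stood apart (Log2FC 0.88 and 0.98). With those left out, 6 genes of the list were higher at 8 days.

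For Atf3, 25 of the other 26 listed bZIP genes were in the table. Of these, 10 were higher and none lower at 5 days, 5 higher at 8 days, and 4 higher and 1 lower at 28 days, with median Log2FC of 0.58, 0.26 and 0.20. Batf2, an interferon-induced factor of immune cells, rose by 4.48 (SE 0.69) at 5 days and 2.93 (SE 0.76) at 28 days. Atf4, the effector of the integrated stress response, rose by 0.68 (SE 0.14) at 5 days. Jun, the usual partner of Atf3, was at 161.5 ± 19.4 CPM against 111 ± 6.02 CPM at 5 days and stayed under the limit of a DEG (Log2FC 0.55, SE 0.15, FDR 0.00779), as did Ddit3 (Log2FC 0.43, SE 0.14, FDR 0.0192). Atf4 fell under that limit without surrogate variables (Log2FC 0.65). At 28 days Jdp2, a repressor of AP-1, was called lower (Log2FC -0.72, SE 0.12), but it was under the limit without surrogate variables (Log2FC -0.57), with 15 counts in every mouse (-0.61) and without the 2 libraries that stood apart (-0.64). With those left out, 8 genes of the list were higher at 8 days, and 6 were higher and none lower at 28 days.

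In the list of the integrated stress response, which joins Atf4 to Atf3, 4 of 21 genes were higher and 2 lower at 5 days, 4 higher at 8 days and 5 higher at 28 days, with median Log2FC of 0.18, 0.19 and 0.20. Nupr1, a stress-induced chromatin protein, rose by 2.63 (SE 0.43) at 5 days and 1.76 (SE 0.44) at 28 days. Ddit4, an inhibitor of mTORC1, fell at 5 days (Log2FC -0.85, SE 0.26), and Shmt2, a mitochondrial enzyme of serine metabolism, was higher at 28 days (Log2FC 0.79, SE 0.21). Without the 2 libraries that stood apart 1 gene was lower at 5 days, since Phgdh no longer passed (Log2FC -0.63).

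The list of DLK and JNK signalling, the kinase cascade known to start the injury programme in axons, held no DEG at 5 or 8 days and 1 at 28 days. Mapk10, the neuronal JNK3, was called at 28 days, and it was lower (Log2FC -0.71, SE 0.13). That call was lost in 12 of the 31 fits that left out 1 mouse, and without the 2 libraries that stood apart 2 genes were lower, Mapk10 (Log2FC -0.79) and Map3k13 (Log2FC -0.87). The median of the 11 genes was -0.20, -0.25 and -0.44. Map3k12, which encodes DLK, was at 71.8 ± 7.89 CPM against 112 ± 3.99 CPM at 5 days (Log2FC -0.50, SE 0.11, FDR 0.00142) and had a Log2FC of -0.41 (SE 0.11) at 28 days, under the limit of a DEG at both. Markers of CA pyramidal neurons were also lower with rAAV-OVA at 28 days, at 2263 to 5520 CPM against 6217 to 7322 CPM, and their part in these values was not tested.

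For Sox11, 9 other genes of SoxC factors and newborn neurons were measured. None was higher at 5 or 8 days, and 1 was lower at 5 days, Neurod1, a factor of young granule cells (Log2FC -1.17, SE 0.31). The dentate granule cell markers summed to 204 to 276 CPM with rAAV-OVA at 5 days and to 279 to 361 CPM in controls, and their part in this value was not tested. At 28 days 2 were higher and 1 lower, the extremes being Igfbpl1 (Log2FC 1.55, SE 0.44), a marker of neuroblasts, and Neurod1 (Log2FC -0.86, SE 0.32). The call of Neurod1 at 28 days was lost with the mice of that day alone (FDR 0.148) and in 16 of the 31 fits that left out 1 mouse. Igfbpl1 was 16.8 CPM in the mouse with the striatal markers and at most 8.70 CPM in the other 30 mice, and its Log2FC was 0.53 and no longer passed without the 2 libraries that stood apart. With them left out 1 gene was higher and none lower at 28 days, since Neurod1 no longer passed (Log2FC -0.62), and Dcx was lower at 8 days (Log2FC -0.67). With all mice Sox4, Sox12 and Dcx were not called at 2, 5, 8 or 28 days, with a Log2FC of 0.49 (SE 0.13) in Sox4 at 28 days.

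Of the 23 other genes known from axon regeneration, 20 were in the table, without Sprr1a, Gal and Il6. In this list 9 genes were higher and none lower at 5 days, 4 higher at 8 days, and 4 higher but 3 lower at 28 days, with median Log2FC of 0.43, 0.09 and 0.15. Cd44, a hyaluronan receptor of glia and leukocytes, rose by 3.07 (SE 0.55) at 5 days and 2.55 (SE 0.56) at 28 days. Hspb1, a small heat shock protein of injured neurons and glia, was 15.5 ± 8.60 CPM against 5.11 ± 2.16 CPM at 5 days (Log2FC 1.60, SE 0.43), and Csf1, a cytokine for microglia, rose by 0.82 (SE 0.22). Nrn1, a neuritin that neurons release, fell by 1.24 (SE 0.24) at 28 days, a call that was lost with the mice of that day alone (FDR 0.0924). Gap43, Npy and Stmn2 were not called at any day with all mice, and Npy was lower at 28 days without the 2 libraries that stood apart (Log2FC -0.72). With these left out, 7 genes of the list were higher at 8 days and 7 at 28 days.

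**Figure D5:**
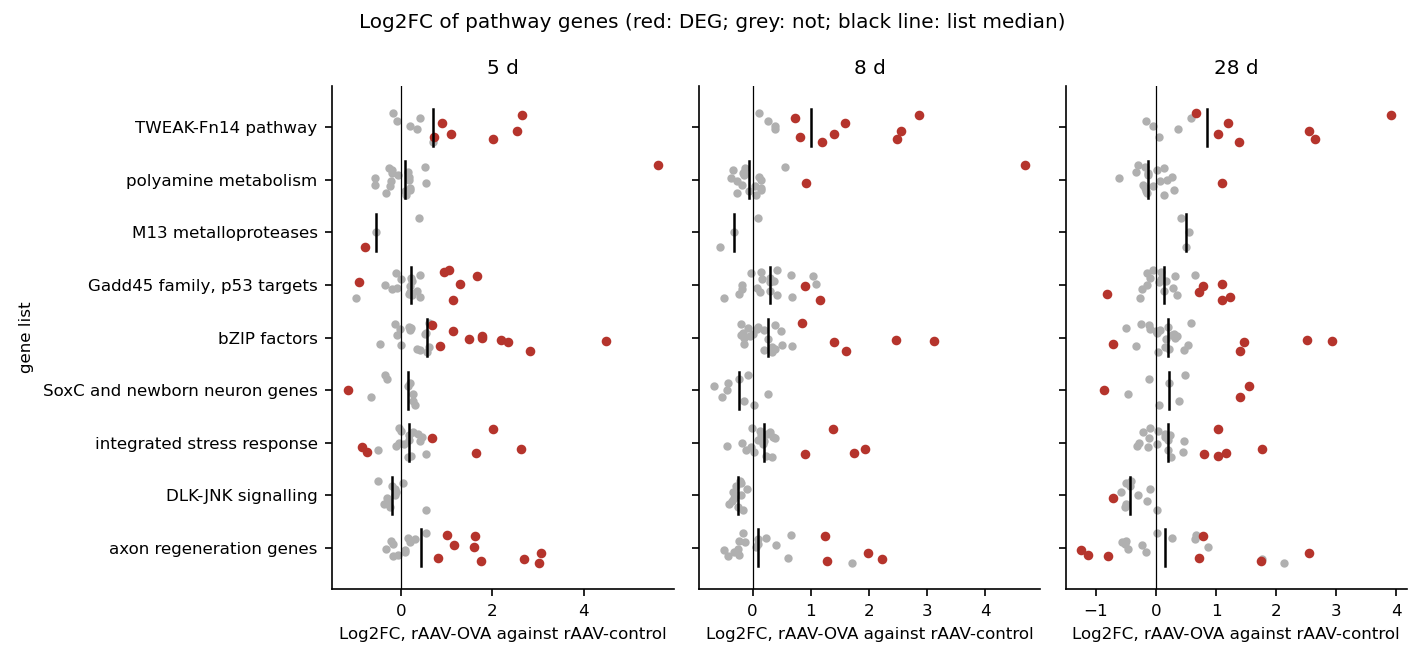
Log2FC of rAAV-OVA against rAAV-control for each gene of the 9 lists at 5, 8 and 28 days, in red for DEGs and grey for the others, with a black line at the list's median and the 6 members left out. The medians of the TWEAK and Fn14 list lie at 0.71, 1.00 and 0.85, those of DLK and JNK signalling lie below 0 at all 3 days, and Traf1 is the point farthest to the right at 28 days.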

How the data were processed

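Paired-end mRNA libraries were made from 31 left hippocampi of OT-I/Rag-/- mice, 1 per mouse. Per the study's methods, the authors trimmed reads, quantified GENCODE M29 transcripts with Salmon 1.8.0 and deposited estimated counts (expected counts) per gene as whole numbers, without normalization, for genes that reached 15 counts in 15 mice or more. DESeq2 1.36.0 is among the tools in the submitters' notes. Totals ran from 19046977 to 57407902 counts per mouse (median 27024978). Counts carry the counting error of each library, and tests measure the spread between mice.

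All 15648 genes were fitted with edgeR 4.0.16 in R 4.3.3 (TMM, robust quasi-likelihood F-test) on 8 groups and 2 surrogate variables (sva 3.50.0), with Benjamini-Hochberg FDR over all genes. SE is the absolute Log2FC divided by the root of F. The fit was tested on simulated data. The alternatives used DESeq2 1.42.0 and limma 3.58.1, other covariates and filters, single days and batches, and each mouse left out. Permutation tests used 100000 resamples. The members and gene lists were chosen with earlier results of these data known. Named genes are the members, their nearest partners, and the DEGs with the largest and smallest Log2FC of each list at 5 and 28 days, of which some are not reported here. Windows came from RefSeq (GRCm38.p6), a build other than that of the counts. No 2 mice of a group agreed within counting noise (chi-square per degree of freedom at least 11.7). Replicates are separate mice.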

Additional observations from a re-analysis of the deposited data

Results flagged for a closer look

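Among 42 combinations of a gene and a group of 4 mice, 4 held a mouse whose level lay far from the other 3, measured by its gap to the nearest mouse over the range of the group, and chance alone would mark about 5% of such groups. The highest rAAV-OVA mouse at 28 days stood at 73.3 CPM of Ecel1 (gap 0.915 of the range) and at 35 CPM of Sox11 (0.881). Both values come from the mouse with the striatal markers. The highest rAAV-OVA mouse at 2 days, mouse 4, stood at 6.17 CPM of Atf3 (0.867), among control mice of 2.52 to 7.54 CPM. The lowest rAAV-control mouse at 28 days stood at 2.89 CPM of Gadd45a (0.895), below 3 mice between 3.35 and 3.40 CPM.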

How the results depend on the processing

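No paired analysis was possible because mouse numbers follow the order of deposition and each belongs to a single mouse. The number of members called at 8 days (1) was 0 with a filter of 15 counts in every mouse, which removes Atf3, and with the mice of the day alone, and 2 without both libraries that stood apart, an alternative chosen after seeing the data. At 28 days (2) it was 1 with that filter, with the mice of the day alone, with batch 1 alone and without both libraries, and 0 with batch 2 alone. In control mice, 28 against 2 days (1) gave 2 with DESeq2, 0 with the filter and 2 without both libraries, and 8 against 2 days (0) gave 1 with DESeq2 and 2 without both libraries. Genes called in the 9 lists (39 at 5 days and 35 at 28 days, and 33 to 44 and 24 to 42 with 1 mouse left out) numbered 60 and 61 without the limit on Log2FC, and at 28 days 17 with batch 1 alone and 0 with batch 2 alone. With 1 mouse left out, members called ran from 0 to 3 at 8 days, 1 to 2 at 28 days, 1 to 2 for 28 against 2 days in controls and 0 to 2 for 8 against 2 days. Ecel1 at 8 days was called, with Log2FC up to 2.17, without rAAV-OVA mouse 2, 3 or 4 of 2 days, mouse 2 of 8 days or mouse 3 of 28 days.

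Log2FC changed sign for Atf3 at 2 days with batch 2 alone (0.03), Sox11 at 2 days with batch 1 alone (-0.015), Sox11 at 8 days without surrogate variables (-0.13), with the batch label in their place (-0.13), the mice of the day alone (-0.10) and without both libraries (-0.063), Sox11 at 28 days with batch 1 alone (-0.28) and without both libraries (-0.39), Ecel1 at 28 days with batch 1 alone (-1.26), Tnfrsf12a at 28 days with limma's voom (-0.021), and the 28-day minus 8-day response of Ecel1 without both libraries (-0.64). With 1 mouse left out Log2FC of Sox11 ran from -0.036 to 0.47 at 2 days, -0.11 to 0.25 at 8 days and -0.17 to 0.36 at 28 days, that of Tnfrsf12a at 28 days from -0.39 to 0.41, and the 28-day minus 8-day response from -1.42 to 2.18 in Ecel1 and -1.42 to 0.021 in Tnfrsf12a. None of these sign changes was in a called value except Ecel1 at 28 days. The causes were not tested. Of the members' Log2FC given for comparisons other than that of 5 days, 218 of 241 under these alternatives and 713 of 744 with 1 mouse left out kept direction and side of the threshold. Levels of about 1 CPM in Ecel1, Tnfrsf12a and Atf3 rest on few counts, down to 13 for Atf3 in 1 control mouse at 8 days, which limits the precision of their control values.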
